A study of Homo sapiens with 9 samples.

Results

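The 10 genes described here encode hepatocyte growth factor, its receptor MET, the serine proteases that can activate the growth factor or act beside them at the cell surface, and the Kunitz-type inhibitors of those proteases. They are HGF, MET, HGFAC, ST14, SPINT1, SPINT2, HPN, PRSS8, TMPRSS2 and TMPRSS4. They were chosen by gene symbol with the array signals of these same samples already known, in particular the large differences of HGF, ST14 and SPINT1 from the control. Their differences between groups are therefore given as a description, without a p-value. All 10 had exactly 1 row, out of 21448 rows and 17687 genes with a single symbol.

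Gene expression was measured on 9 one-colour arrays of the human cell line AsPC-1, which was established from a pancreatic adenocarcinoma. The control cells carried the blank pBAsi-hU6 NEO plasmid, and the other cells carried that plasmid with shRNA-1 (sh1) or shRNA-2 (sh2) against SLP-2, the mitochondrial protein encoded by STOML2. All groups were transfected and kept in Geneticin for 3 weeks, and each was grown from 1 colony, so that a group is 1 clone and a difference between clones cannot be told apart from an effect of an shRNA. There were 3 arrays per group, and no source says whether they came from separate cultures, so errors and tests cover only the spread among a clone's arrays and that spread may be technical.

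HGF is secreted as an inactive single chain that binds MET but does not activate it until a serine protease cuts it once. The secreted protease HGFAC and the membrane-anchored proteases matriptase (ST14) and hepsin (HPN) can make that cut, and the membrane-bound inhibitors encoded by SPINT1 and SPINT2 (HAI-1 and HAI-2) block them. In epithelia, matriptase and prostasin (PRSS8) work as a pair under the control of these inhibitors. HGF is made mainly by mesenchymal cells and MET by epithelial cells, and MET signalling is known for driving scattering and invasion in pancreatic cancer.

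RefSeq promoter windows (GRCh38.p14, 250 bases before each annotated start and 50 after it) were at hand for 5 of the 10 genes, namely HGF, MET, HGFAC, SPINT1 and HPN. The 250 bases before the start are shown for HGF and for the first of both SPINT1 starts, because these genes had the largest differences from the control among the members, with sh2 and with sh1 respectively. Capitals would mark the E-box CANNTG, which includes the CACCTG form bound by SNAI and ZEB repressors, and AACNGGTT, which includes the Grainyhead-like site AACCGGTT, on either strand. Neither printed window of 250 bases holds any of them. A stretch of 30 bases around the 1 match of the second SPINT1 window is shown as well, with the E-box in capitals.
HGF, chr7:81770048-81770297, minus strand: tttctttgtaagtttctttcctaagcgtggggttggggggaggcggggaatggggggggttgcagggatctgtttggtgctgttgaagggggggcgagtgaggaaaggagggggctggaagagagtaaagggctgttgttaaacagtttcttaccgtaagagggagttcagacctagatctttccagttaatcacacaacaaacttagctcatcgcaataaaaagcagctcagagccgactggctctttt
SPINT1 first start, chr15:40843798-40844047, plus strand: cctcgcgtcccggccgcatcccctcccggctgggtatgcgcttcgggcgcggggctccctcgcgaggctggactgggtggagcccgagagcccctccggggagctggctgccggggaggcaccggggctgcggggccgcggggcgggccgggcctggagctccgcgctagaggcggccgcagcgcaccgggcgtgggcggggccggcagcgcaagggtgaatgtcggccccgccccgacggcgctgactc
SPINT1 second start, chr15:40844439-40844468, plus strand: tcccgggctgatCAGGTGtgtctcctcctc
The windows differ in composition. Over these 250 bases, G and C made up 50% of the HGF window and 80.4% of the first SPINT1 window, against a median of 58.0% over all 35116 windows, and CG pairs numbered 6 and 35, against a median of 11. In the full 300 bases, CACCTG was found 2 times for HGFAC, 3 times for HPN and 1 time in the second SPINT1 window, and it occurs in 20.6% of all windows. CANNTG occurs in 68.7% of all windows, AACNGGTT in 1.73% and AACCGGTT in 0.134%. MET had 1 match to CANNTG, HGFAC 3, HPN 3 and the second SPINT1 window 1. A match describes these letters only.

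The arrays were alike in scale, with medians of 6.57 to 6.65 (log2 signal) and correlations across rows of 0.994 to 0.996 within groups and 0.982 to 0.988 between them. A lower quartile of the row means of 4.21 served as a mark for signals near the background, as no detection calls were at hand. STOML2, the target, was lower in both lines, at -5.35 ± 0.16 (SE) with sh1 and -5.94 ± 0.16 with sh2 on the log2 scale (limma, adjusted p = 2.31e-09 and 1.63e-09). Signals of different genes come from different probes, so levels were compared within a gene only.

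Of the 10 genes, HGF was higher in both lines and most so with sh2, while SPINT1, TMPRSS2 and ST14 were much higher with sh1 and lay within 0.66 log2 units of the control with sh2. MET, SPINT2, HPN, PRSS8, HGFAC and TMPRSS4 were not called in any comparison. Calls are rows with an adjusted p under 0.05 over the whole table. In sh1 against the control, 4 members were called, each of them higher, where 18.8% of all rows were called (9.76% higher). In sh2 against the control, 2 were called, both higher, where 16.3% of rows were called (8.33% higher). Between the lines, 1 was called higher and 3 lower with sh2 than with sh1, where 11.3% of rows were called (5.73% higher and 5.57% lower). Both lines were set against the same control arrays. Since the members were picked with these values known, nothing is read from their counts. The median difference of the members was 0.23 with sh1 and 0.08 with sh2, against 0.020 and 0.017 over all rows.

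**Figure D1:**
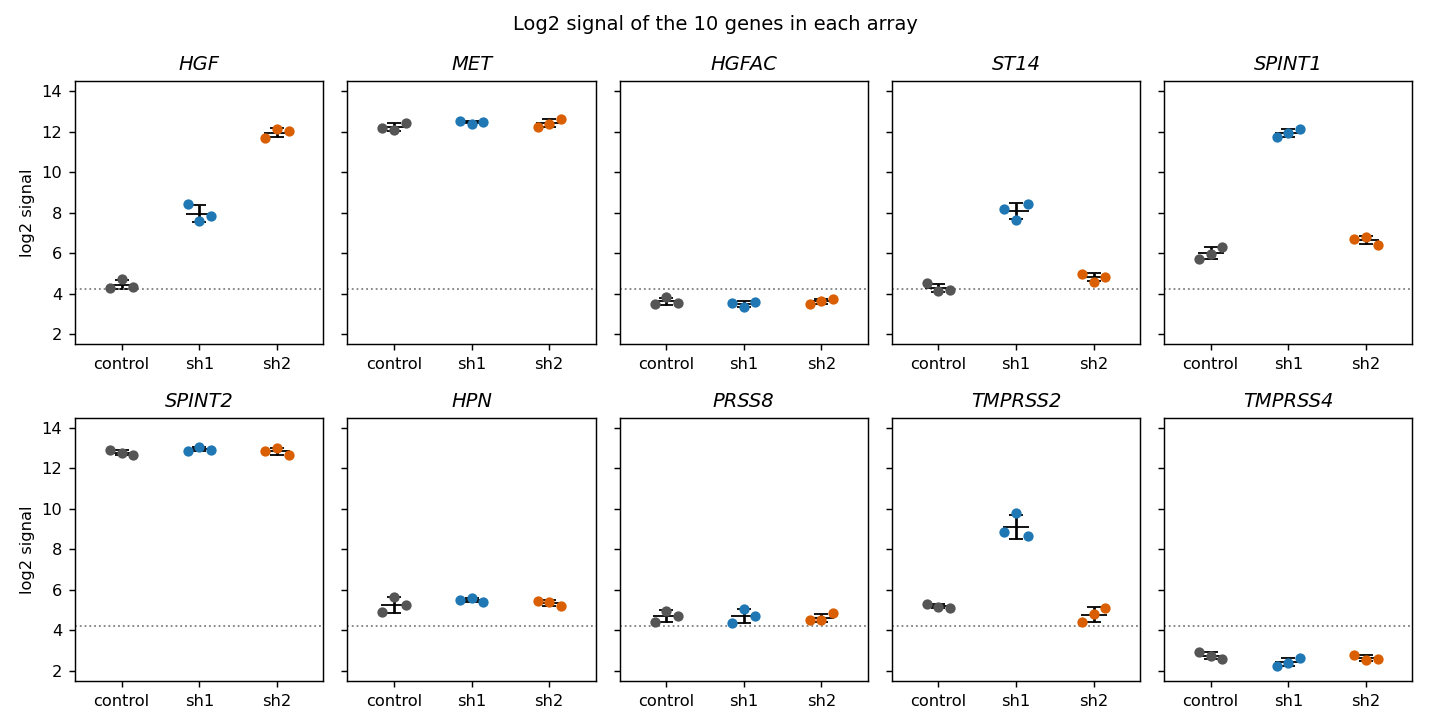
Log2 signal (vertical axis) of each of the 10 genes in the control, sh1 and sh2 arrays; points are arrays, bars the mean ± SD of 3 arrays, and the dotted line is the lower quartile of the row means (4.21). HGF stands highest with sh2, ST14, SPINT1 and TMPRSS2 stand highest with sh1, and the other 6 genes differ by at most 0.32 between group means.

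HGF, the ligand, had log2 signals of 4.30, 4.71 and 4.31 in the control arrays, 8.41, 7.57 and 7.85 with sh1, and 11.71, 12.12 and 12.03 with sh2. The 3 groups did not overlap, and the control arrays lay just above the background mark. Its difference from the control was 3.50 ± 0.21 (SE) with sh1, or 11.3-fold, and 7.51 ± 0.21 with sh2, or 183-fold. The control signal was near the background mark, where array signals flatten out. As RNA was measured in bulk, fewer cells with a transcript and less of it per cell cannot be told apart, here or for the other genes. The sh2 arrays exceeded the sh1 arrays by 4.01 ± 0.21. Among all rows, 50 had a difference of larger size with sh1 and 3 with sh2.

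MET, the receptor, gave 12.19, 12.08 and 12.43 in the control, 12.52, 12.40 and 12.48 with sh1, and 12.24, 12.37 and 12.62 with sh2. Its arrays overlapped between all groups. The differences were 0.23 ± 0.14 (SE) with sh1 and 0.18 ± 0.14 with sh2, and 91.2% of rows had a lower mean signal. The receptor row was thus well above the background mark in every array, those of the control included.

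Matriptase (ST14), which cuts HGF and other proteins at the cell surface, gave 4.53, 4.15 and 4.18 in the control and 8.18, 7.64 and 8.41 with sh1. In sh2 its signals were 4.97, 4.59 and 4.84. The sh1 arrays stood far above the others, whereas the lowest sh2 array lay only 0.06 above the highest control array. The difference from the control was 3.79 ± 0.20 (SE) with sh1, or 13.8-fold, and 0.51 ± 0.20 with sh2, which was not called. Without sh1 array 2 the same sh2 difference of 0.51 was called.

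SPINT1 encodes HAI-1, the main membrane inhibitor of matriptase. Its signals were 5.70, 5.96 and 6.30 in the control, 11.76, 11.95 and 12.14 with sh1, and 6.71, 6.82 and 6.40 with sh2. All groups were separate, with a wide gap of 5.46 between sh1 and control arrays and a narrow gap of 0.10 between sh2 and control arrays. The difference was 5.96 ± 0.18 (SE) with sh1, or 62.4-fold, and 8 rows had a larger one. In sh2 it was 0.66 ± 0.18, or 1.58-fold, and this call was lost when array 1 or 2 of the control or array 1 or 2 of sh2 was left out (0.51 to 0.81 over all arrays left out in turn). SPINT2, the gene of the related inhibitor HAI-2, differed little between groups, with signals of 12.90, 12.77 and 12.64 in the control, 12.85, 13.04 and 12.93 with sh1, and 12.86, 13.02 and 12.68 with sh2. Its differences were 0.17 ± 0.13 and 0.08 ± 0.13, and 93.4% of rows had a lower mean signal.

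TMPRSS2, a membrane serine protease of epithelia that can cut and activate matriptase, gave 5.29, 5.14 and 5.12 in the control, 8.84, 9.78 and 8.68 with sh1, and 4.40, 4.82 and 5.12 with sh2. Only the sh1 arrays stood apart, and the highest sh2 array equalled the lowest control array. The difference was 3.92 ± 0.26 (SE) with sh1, or 15.1-fold, and -0.40 ± 0.26 with sh2, which was not called. Among the members, TMPRSS2 was the 1 gene with a negative difference in one line and a called positive difference in the other. Between the lines it differed by -4.32 ± 0.26 (sh2 minus sh1), and 8 rows had a larger difference.

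Prostasin is the partner of matriptase. The signals of PRSS8 ran from 4.40 to 4.97 in the control, from 4.38 to 5.03 with sh1 and from 4.49 to 4.86 with sh2, with differences of 0.01 ± 0.20 (SE) and -0.08 ± 0.20. Hepsin (HPN), another activator of HGF, ran from 4.88 to 5.65, from 5.38 to 5.58 and from 5.18 to 5.44, with differences of 0.23 ± 0.18 and 0.08 ± 0.18. HGFAC, the circulating activator made mainly by the liver, lay under the background mark in all 9 arrays (3.32 to 3.82), with differences of -0.14 ± 0.14 and -0.02 ± 0.14. TMPRSS4, a membrane protease linked to pancreatic cancer, lay lower still at 2.26 to 2.94, and 0.159% of rows had a lower mean. Its differences of -0.32 ± 0.15 and -0.11 ± 0.15 were not called and are not interpretable at that level. Arrays of sh1 and control did not overlap for 4 of the 10 genes, against 34.5% of all rows. For sh2 and control this held for 3 genes, against 32.5% of rows, and for sh2 and sh1 for 4, against 27.1%. Those for sh2 and control are HGF, ST14 and SPINT1, and the 4 in the other comparisons are these genes and TMPRSS2.

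**Figure D2:**
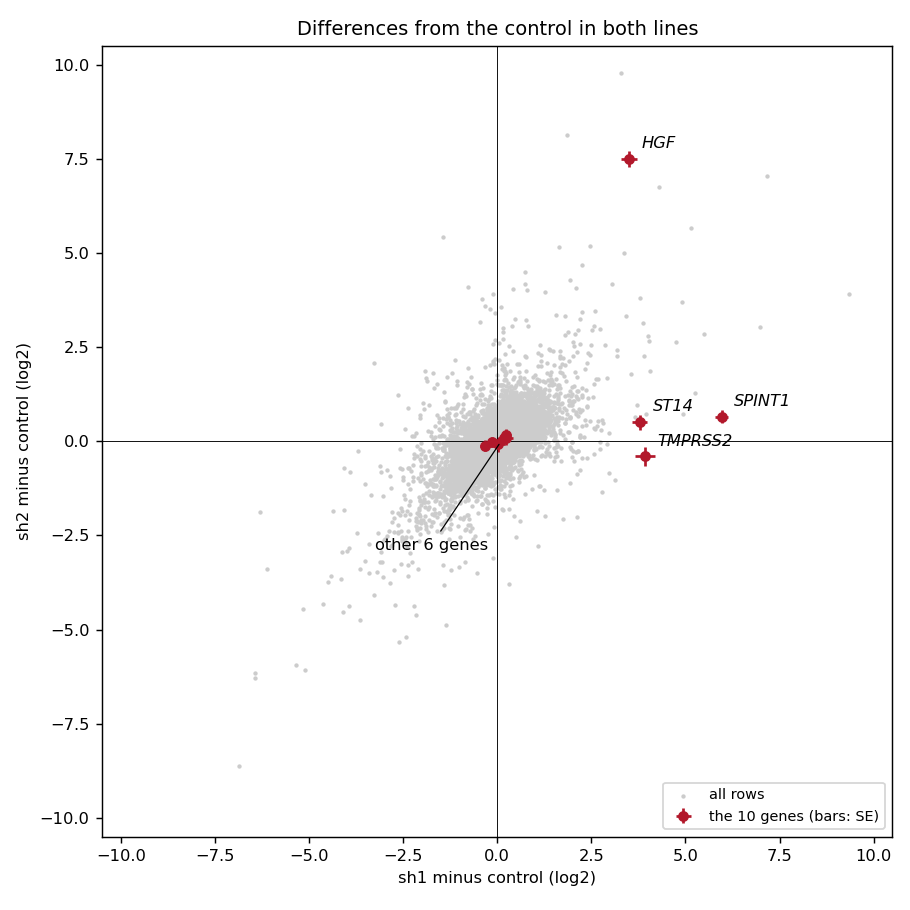
Log2 difference from the control with sh1 (horizontal) and sh2 (vertical) for all 21448 rows (grey) and the 10 genes (red, bars are SE). HGF lies at 3.50 and 7.51, SPINT1, ST14 and TMPRSS2 lie along the sh1 axis at 5.96, 3.79 and 3.92, and the other 6 lie near the origin; both axes share the control arrays.

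Each gene was then set beside its neighbours on the chromosome. The medians below are over the nearest genes in RefSeq order with a signal above the median of all rows, 20 on each side. SPINT1 lies on chromosome 15, where 35 of its 40 neighbours were higher with sh1 (26 called higher, 0 lower), with a median of 0.73, against 0.14 with sh2. The median over all 324 such genes of chromosome 15 was 0.76 with sh1 and 0.25 with sh2. The sh1 difference of SPINT1 was thus 5.96 among neighbours of which the highest, CHAC1, was at 1.82, and the sh2 difference of 0.66 stood among neighbours with a median of 0.14. The part of the region in the SPINT1 values was not tested. ST14 on chromosome 11 had 30 such neighbours, with a median of -0.04 with sh1 and -0.08 with sh2, and they ran from -2.04 to 0.76 with sh1.

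HGF on chromosome 7 had a neighbour median of 0.06 with sh1 and -0.05 with sh2, with a range of -4.12 to 2.53 with sh1 and -3.57 to 1.70 with sh2. With 20 neighbours in place of 40, these medians were 0.26 and 0.24. Close to HGF, several neighbours differed from the control as well, and they are named here after their values were seen. CACNA2D1, a calcium channel subunit and the next expressed gene, was at 0.59 with sh1 and 1.70 with sh2. The semaphorin genes SEMA3C, SEMA3E and SEMA3A were at 0.69, -2.07 and 1.65 with sh1 and at 1.08, -1.76 and 1.49 with sh2, and GNAI1, a G protein subunit, was at 2.53 and 1.17. CACNA2D1 had the highest sh2 difference of the 40 neighbours. The part of these neighbours in the HGF values was not tested. TMPRSS2 on chromosome 21 had neighbour medians of 0.12 and 0.02. Its next expressed neighbour MX1, an interferon-inducible GTPase, was at 2.15 with sh1 and -0.26 with sh2, and was the highest of the 40 with sh1.

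**Figure D3:**
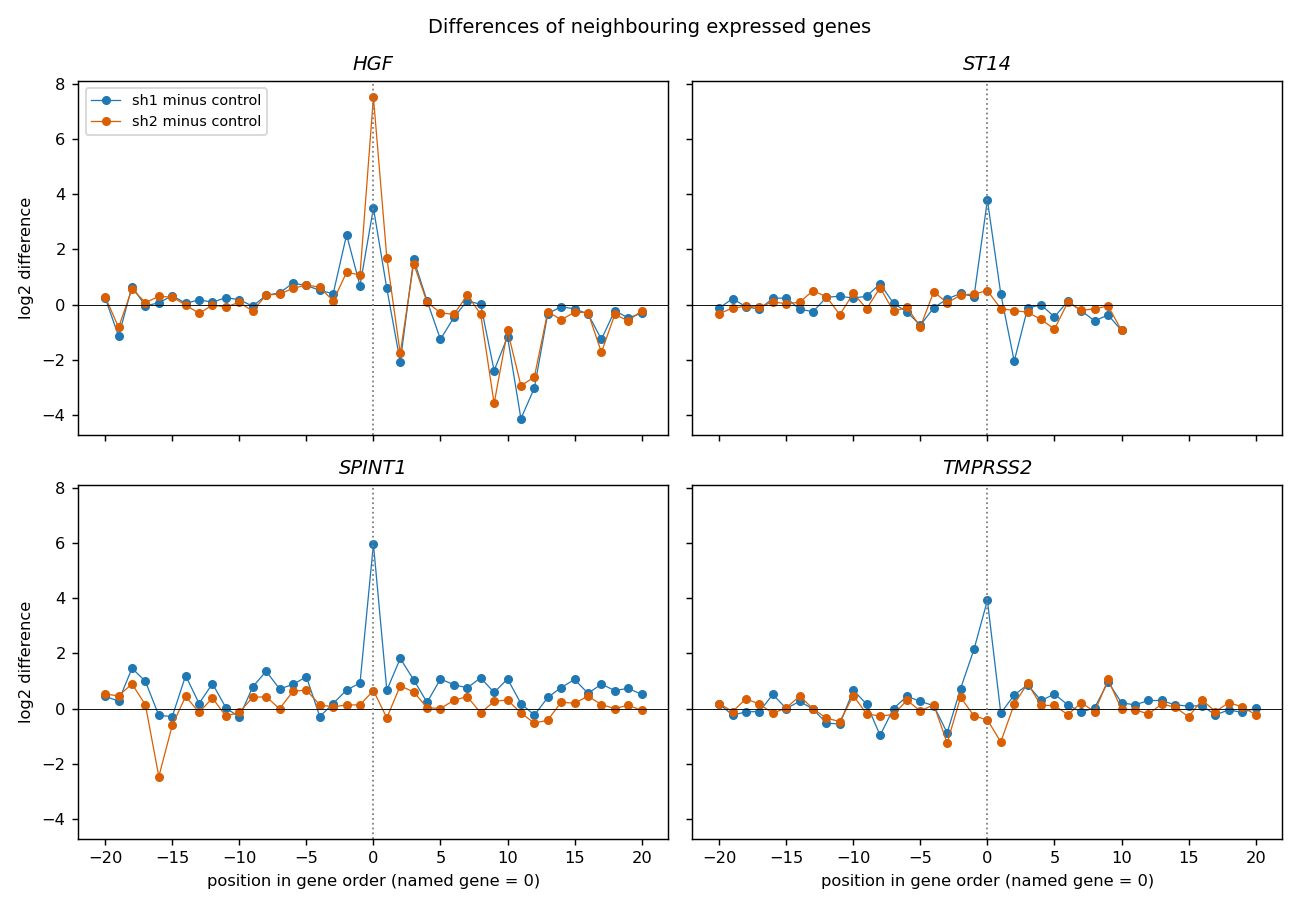
Log2 difference from the control (vertical) of HGF, ST14, SPINT1 and TMPRSS2 (position 0) and of the expressed genes on either side in gene order (horizontal), with sh1 (blue) and sh2 (orange). With sh1 all 4 genes stand above each of their neighbours, and most SPINT1 neighbours lie above 0 with sh1 (median 0.73).

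The genes most like each of the 4 moving members were found by the root mean square difference (RMS) over the 9 arrays, after the control mean of each row was subtracted. These are descriptions, and all points of such a profile come from the same 3 clones. HGF was nearest to TNIK, a kinase of Wnt signalling (RMS 0.68 log2 units, r = 0.978), then to MMP1, an interstitial collagenase (1.08, r = 0.960), and MAL2 (1.37, r = 0.984). ST14 was nearest to MYO1D, an unconventional myosin (0.33, r = 0.981), ELOVL7 (0.45, r = 0.967) and DMKN (0.53, r = 0.992). SPINT1 was nearest to NEO1 (0.60, r = 0.986), a receptor gene on the same chromosome, to EPCAM, an epithelial adhesion molecule (0.64, r = 0.995), and to ALDH1A1 (1.28, r = 0.959). TMPRSS2 was nearest to GATM, an enzyme of creatine synthesis (0.64, r = 0.980), to DSP, the desmosomal protein desmoplakin (0.69, r = 0.978), and to CYP24A1 (0.70, r = 0.973). GATM, like NEO1, lies on chromosome 15, and the part of that chromosome in their values was not tested. MYO1D shows the closeness of the ST14 match: its means were 4.64 ± 0.18 (SD, n = 3) in the control, 8.29 ± 0.24 with sh1 and 5.29 ± 0.39 with sh2, beside 4.29 ± 0.21, 8.08 ± 0.40 and 4.80 ± 0.19 for ST14.

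**Figure D4:**
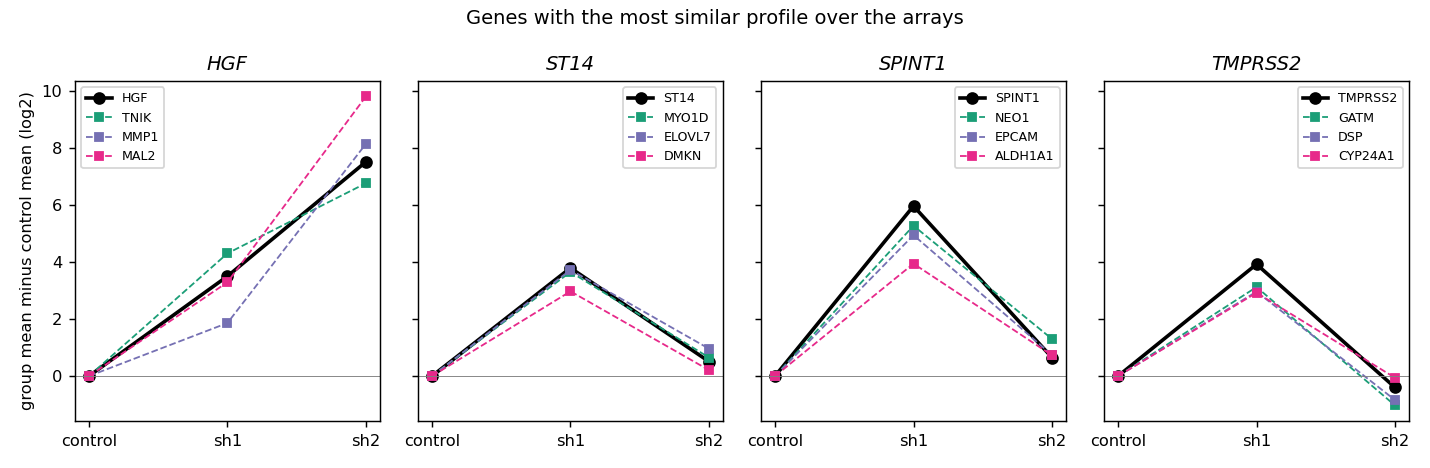
Group mean minus control mean (log2, vertical) in control, sh1 and sh2 for HGF, ST14, SPINT1 and TMPRSS2 (black) and for the 3 genes with the most similar profile over the arrays (colours). HGF and its nearest genes climb from control over sh1 to sh2, while the other panels peak with sh1.

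Other genes of the pathway came from lists of known partners, and their differences were tested over all rows (limma). Over all rows, 18.8% were called with sh1 (9.76% higher) and 16.3% with sh2 (8.33% higher). These shares stand beside the counts of each list below, markers of cell types included. Of the 12 measured among other HGF-activating proteases and the serpins that block such proteases, 1 rose and 1 fell with sh1, and 0 rose and 2 fell with sh2 (median -0.00 and 0.12). At an unadjusted p under 0.05, 3 were higher with sh2, and 6 of the 12 lay under the background mark in every group. TMPRSS13, a relative of TMPRSS2, was called at -0.56 with sh1 and -0.67 with sh2 (adjusted p = 0.0104 and 0.00427), and KLKB1 (plasma kallikrein) at 0.81 with sh1 (adjusted p = 0.0123), both under the background mark in all 9 arrays. Differences at that level are not interpretable as changes of a transcript. The KLKB1 call was lost without control array 3 (0.65, adjusted p = 0.0523). SERPINC1 (antithrombin) fell by 0.63 with sh2 (adjusted p = 0.0465), but not without any 1 of the arrays other than sh2 array 3 (-0.73 to -0.40, adjusted p = 0.0571 to 0.154). Its sh2 signals of 3.84, 4.45 and 4.63 lay close to the background mark. PLAU, the urokinase that can also activate HGF, is named after its values were seen. It had 13.80, 13.59 and 13.75 in the control, 13.61, 13.83 and 13.66 with sh1, and 14.16, 14.06 and 14.03 with sh2. Its differences of -0.01 and 0.37 were not called (adjusted p = 0.962 and 0.065). The sh2 difference was called under 3 of 18 alternatives.

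Among 16 other serine proteases, most of them membrane-anchored, 1 rose and 1 fell in each line (median -0.04 and 0.04). Of the 16, 12 lay under the background mark in all groups. PRSS22, a secreted protease of epithelia, rose in both lines. Its signals were 6.31, 6.0 and 6.38 in the control, 8.85, 8.14 and 8.47 with sh1, and 7.43, 7.37 and 7.56 with sh2. The groups did not overlap, and the difference was 2.26 with sh1 (adjusted p = 5.67e-06) and 1.22 with sh2 (adjusted p = 0.000682). The 1 called lower was TMPRSS13, with signals under the background mark as given above. For MSP and RON, the ligand and receptor related most closely to HGF and MET, neither gene was called in either line (0 of 2 with sh1 and 2 of 2 with sh2 at an unadjusted p under 0.05). MST1 differed by 0.03 and 0.26, and MST1R by -0.15 and 0.44 (adjusted p = 0.621 and 0.104), the last of which was called without sh1 array 2 (0.44, adjusted p = 0.0494).

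Among 12 other proteins with Kunitz domains, the fold of the inhibitors HAI-1 and HAI-2, 2 rose and 1 fell in each line (median -0.06 and 0.00). TFPI (tissue factor pathway inhibitor) rose by 0.72 with sh1 and 1.27 with sh2 (adjusted p = 0.00324 and 7.06e-05), from 13.35 ± 0.12 (SD, n = 3) in the control. TFPI2, its secreted relative, rose by 0.72 and 1.69 (adjusted p = 0.0325 and 0.000194) from a control mean of 3.65, under the background mark. PAPLN, a matrix protein, fell by 1.21 and by 0.85 (adjusted p = 0.00366 and 0.0289). The TFPI2 call with sh1 was lost without control arrays 1 or 3 or any 1 of the sh1 arrays (0.59 to 0.74, adjusted p = 0.0715 to 0.128), and the PAPLN call with sh2 without control array 2, sh2 array 1 or sh2 array 2 (-0.83 to -0.64, adjusted p = 0.0805 to 0.113).

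Of 7 measured substrates of matriptase, 2 rose and 1 fell with sh1, and 1 rose and 0 fell with sh2 (median 0.32 and 0.24; 1 was lower with sh2 at an unadjusted p under 0.05). EPCAM had 8.90, 8.81 and 9.11 in the control, 13.83, 13.98 and 13.83 with sh1, and 9.66, 9.50 and 9.87 with sh2. It rose by 4.94 with sh1 and by 0.74 with sh2 (adjusted p = 1.77e-09 and 0.00361), with no overlap between groups. SCNN1G, the gamma subunit of the epithelial sodium channel, rose by 2.72 with sh1 (adjusted p = 1.74e-05) and differed by -0.19 with sh2 (adjusted p = 0.692). CDCP1, a surface protein cut by matriptase, fell by 0.87 with sh1 (adjusted p = 0.000902) and differed by -0.38 with sh2 (adjusted p = 0.0834), which was called without sh2 array 1 (-0.48, adjusted p = 0.0451).

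On the receptor side, 2 of 12 measured co-receptors and partners of MET rose and 4 fell with sh1, and 2 rose and 1 fell with sh2 (median -0.14 and -0.20). NRP2, a neuropilin that can bind HGF, fell by 3.95 with sh1 and by 4.38 with sh2 (adjusted p = 1.55e-07 and 5.75e-08), to means of 4.01 and 3.58 under the background mark. ITGA6 (integrin alpha 6) rose by 0.58 and 1.17 (adjusted p = 0.0047 and 4.31e-05). Its partner ITGB4, which can act as a platform for MET, fell by 0.88 with sh1 (adjusted p = 0.0119), a call lost without control array 1 or sh1 array 2 (-0.74 to -0.71, adjusted p = 0.0513 to 0.0535). ERBB3, a receptor that can partner MET, rose by 1.14 with sh1 (adjusted p = 0.00269) from a control mean of 4.10, under the background mark. NRP1 was called in opposite directions, at -0.82 with sh1 and 0.73 with sh2 (adjusted p = 0.00149 and 0.00367), and is named after its values were seen.

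Of 20 measured adaptors and effectors of MET, 4 rose and 6 fell with sh1, and 3 rose and 5 fell with sh2 (median 0.03 and 0.18). GAB1, the docking protein of activated MET, fell from 8.07, 7.86 and 8.15 in the control to 6.10, 6.30 and 6.45 with sh1 and 6.89, 6.49 and 6.30 with sh2. The control arrays lay above all others, and the changes were -1.74 and -1.47 (adjusted p = 2.52e-05 and 0.000118). PIK3R1, a regulatory subunit of PI3 kinase, changed by -1.28 and -1.25 (adjusted p = 0.000182 and 0.000255), and STAT3, a transcription factor downstream of MET, by -0.93 in each line (adjusted p = 0.000373 and 0.000448). PTPN11, the phosphatase SHP2, rose by 0.61 and 0.60 (adjusted p = 0.00349 and 0.0046). MAPK3 (ERK1) was called in opposite directions, at -0.39 and 0.46 (adjusted p = 0.0479 and 0.0253), and is named after its values were seen. Its sh1 call was lost without any 1 of the 9 arrays (-0.46 to -0.31, adjusted p = 0.0501 to 0.182), and its sh2 call without control array 2 or 3 or sh2 array 1 or 2 (0.40 to 0.45, adjusted p = 0.0661 to 0.0954).

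Among 12 measured genes of MET turnover and shedding, 2 rose and 2 fell with sh1, and 1 rose and 3 fell with sh2 (median -0.14 and -0.02). At an unadjusted p under 0.05, 2 were higher and 5 lower with sh1, and 3 were higher and 4 lower with sh2. LRIG1, which promotes the loss of MET and of ERBB receptors, changed by -1.46 with sh1 and by -2.37 with sh2 (adjusted p = 0.00423 and 0.000187). ADAM10, a sheddase of MET, rose by 0.81 and 0.51 (adjusted p = 0.00143 and 0.0243), and the sh2 call was lost without control array 1, control array 2 or sh2 array 3 (0.40 to 0.55, adjusted p = 0.051 to 0.0969). USP8, a deubiquitinase of endosomes, rose by 0.96 with sh1 (adjusted p = 0.00151), and its sh2 difference of 0.43 was called without control array 2 (0.60, adjusted p = 0.0289). ADAM10 and USP8 lie on chromosome 15, whose expressed genes had a median of 0.76 with sh1 and 0.25 with sh2, and its part in their values was not tested. SH3KBP1, an adaptor of receptor uptake, fell by 0.79 with sh1 (adjusted p = 0.00418) and differed by 0.28 with sh2 (adjusted p = 0.287).

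Of 21 genes known to be induced by HGF, 5 rose and 4 fell with sh1, and 6 rose and 1 fell with sh2 (median 0.06 and 0.00). At an unadjusted p under 0.05, 6 were higher and 5 lower with sh1, and 7 were higher and 5 lower with sh2. MMP1, which also had one of the profiles nearest to HGF, had 6.06, 5.91 and 4.95 in the control, 7.93, 7.11 and 7.45 with sh1, and 14.10, 13.56 and 13.67 with sh2. All 3 groups were separate, and the rise was 1.86 with sh1 and 8.14 with sh2 (adjusted p = 0.000854 and 1.07e-08). DUSP6, an ERK phosphatase, rose by 1.68 and 2.27 (adjusted p = 0.000273 and 3.65e-05), and SPRY4, a feedback inhibitor of receptor signalling, by 1.15 and 2.29 (adjusted p = 0.000703 and 4.24e-06). JUN went the other way, at -1.31 and -1.95 (adjusted p = 0.0257 and 0.00326), and its sh1 call was lost without any 1 of the control arrays, sh1 array 1 or sh1 array 3 (-1.40 to -1.02, adjusted p = 0.0511 to 0.0995). The median over the list lay near that of all rows in both lines.

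**Figure D5:**
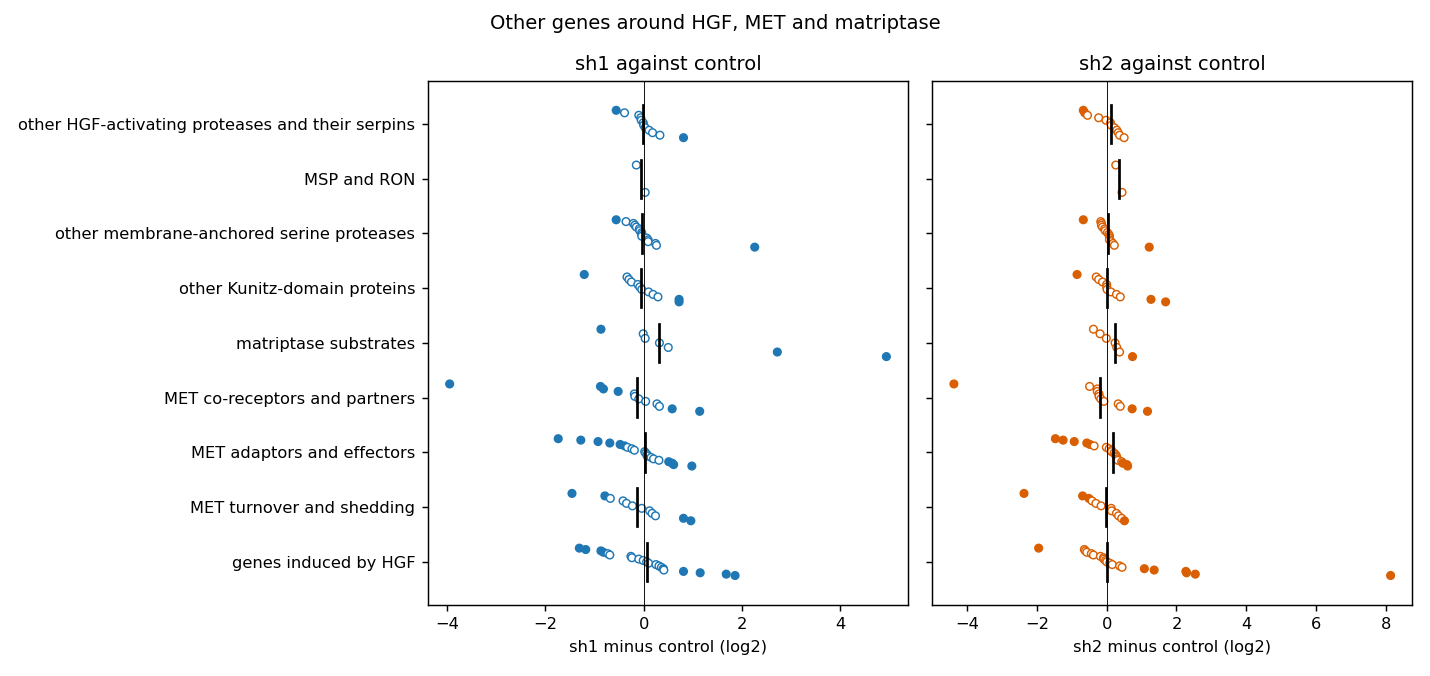
Log2 difference from the control (horizontal) of each measured gene of the 9 lists around HGF, MET and matriptase, with sh1 (left) and sh2 (right); filled points were called, open points were not, and black bars are list medians. Medians stay between -0.20 and 0.35, while single genes such as MMP1 with sh2 (8.14) and EPCAM with sh1 (4.94) lie far out.

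Markers of cell types were read beside the HGF and ST14 values. The means of all 12 epithelial markers lay above the background mark in every group. That mark does not separate cell types. In the control, only 3 of 11 fibroblast, 3 of 6 endothelial and 2 of 7 leukocyte markers lay under it. Of the 12 epithelial markers, 6 rose and 1 fell with sh1 and 5 rose and 2 fell with sh2 (median 0.55 and 0.40). ESRP1, which directs epithelial splicing, rose by 9.34 and 3.93, and ELF3, an epithelial transcription factor, by 2.25 and 1.19 (adjusted p at most 0.0108). CDH1 (E-cadherin) was called in opposite directions, at 2.03 and -0.52 (adjusted p = 4.02e-06 and 0.0419), and is named after its values were seen. Its sh2 call was lost without any 1 of the control arrays, sh1 array 1, sh2 array 1 or sh2 array 3 (-0.58 to -0.45, adjusted p = 0.0521 to 0.137). KRT18 (keratin 18) rose by 1.21 and 1.27 (adjusted p = 0.000138 and 0.000122). KRT19 (keratin 19), named after its values were seen, was called lower in both lines, at -1.69 and -0.57 (adjusted p = 1.74e-05 and 0.0286), the latter lost without any 1 of the control arrays, sh2 array 2 or sh2 array 3 (-0.59 to -0.54, adjusted p = 0.0639 to 0.0855). Summed on the linear scale, the 12 markers had a log2 of 17.26 to 17.36 in the control. This was 17.59 to 17.71 with sh1 and 17.57 to 17.70 with sh2. KRT8 (keratin 8), named after its values were seen, weighs most in this sum, with group means of 16.2, 16.91 and 16.9. It rose by 0.71 and 0.70 (limma, adjusted p = 0.00114 and 0.00152). The part of the summed signal in the ST14, SPINT1 and TMPRSS2 values was not tested.

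Of 11 measured markers of fibroblasts and stellate cells, which are common sources of HGF in tissue, 2 rose and 2 fell with sh1, and 1 rose and 2 fell with sh2 (median -0.13 and 0.04). The log2 of their summed signal was 11.33 to 11.53 in the control, 10.21 to 10.49 with sh1 and 10.02 to 10.24 with sh2. COL1A1 and COL1A2 were the 2 markers that fell and had the highest control signals of the list, and the part of these markers in the HGF values was not tested. Only 2 of the 11, LUM and FAP, lay under the background mark in all groups, and they are named after their values were seen. COL1A1 fell by 3.19 and by 3.48 (adjusted p = 1.18e-07 and 5.02e-08), and COL1A2 by 1.18 and by 1.16 (adjusted p = 0.00165 and 0.00229). POSTN (periostin) rose by 1.61 and 1.09 from under the mark (adjusted p = 0.000676 and 0.0099), and THY1 rose by 0.87 with sh1 (adjusted p = 0.00138).

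None of 6 endothelial markers was called in either line (0 of 6 with sh1 and with sh2, limma), with PECAM1 at 0.24 and 0.33 and ESAM at 0.04 and 0.41. At an unadjusted p under 0.05 the count was also 0 of 6 in both. Of 7 leukocyte markers, 0 rose and 2 fell with sh1, and 0 rose and 1 fell with sh2 (0 and 1 higher at an unadjusted p under 0.05). PTPRC (CD45) fell by 0.70 and by 0.65, to means under the background mark (adjusted p = 0.0108 and 0.0191), and the sh2 call was lost without control arrays 2 or 3 or sh2 arrays 2 or 3 (-0.64 to -0.59, adjusted p = 0.0563 to 0.0714). CD68 fell by 0.48 with sh1 (adjusted p = 0.0339), a call lost without any 1 of the control arrays, sh1 array 2 or sh1 array 3 (-0.50 to -0.37, adjusted p = 0.0687 to 0.127). With sh2, CD68 differed by 0.41 (adjusted p = 0.0733), which was called under 1 of 18 alternatives.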

How the data were processed

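The deposited table holds 1 log2 signal per row and array. Per the submitters' processing notes, the authors summarised the arrays with Transcriptome Analysis Console; its normalization, settings and version are not stated there, and the log2 scale was read from the values (2.03 to 18.57, 2 decimals). Values were used as deposited, without detection calls. Labelling used 100 ng of total RNA and biotin, per the labels' protocols.

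Differences were fitted with limma 3.58.1 in R 4.3.3 over all 9 arrays and 21448 rows, with Benjamini-Hochberg adjustment over all rows. Where a gene had several rows, the one with the highest mean was used. Symbols came from the platform annotation, gene order and promoter windows from RefSeq (GRCh38.p14). Of 9 pathway lists, 109 of 124 genes were measured, and those not measured were not analysed here. The members and lists were chosen with earlier results of these data known. Named genes are the members, STOML2, up to 4 genes of each list (called in both lines, ranked by the smaller difference, then called in 1; where none was called, up to 2 with the largest difference), and the 3 genes most like each member whose group means span at least 1 log2 unit. The fit was tested on simulated data. The main fit did not pair arrays by number. Deviations of same-numbered arrays correlated at -0.0358 to 0.18 (2 of 9 pairs over 0.1), highest for number 1 (0.0856 to 0.18). Arrays of different number were not compared, so pairing is not excluded. Alternatives were other scalings, filters, priors, thresholds, sample sets, a replicate block and leaving out each array.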

Additional observations from a re-analysis of the deposited data

Results flagged for a closer look

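Some results differed between the 2 shRNA lines by the test of sh2 against sh1 within the same fit (limma, adjusted p under 0.05). Among the members, the sh2 minus sh1 difference (log2) was 4.01 for HGF, -3.28 for ST14, -5.31 for SPINT1 and -4.32 for TMPRSS2, which are descriptions because these genes were chosen with the values known.

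Among matriptase substrates and partners of MET, the same difference was -4.20 for EPCAM, -2.92 for SCNN1G, 0.48 for CDCP1, -0.75 for ERBB3 and 0.59 for ITGA6. Among other proteases, inhibitors and receptors it was -1.03 for PRSS22, 0.56 for TFPI, 0.97 for TFPI2 and 0.59 for MST1R. HGF-induced genes gave 6.28 for MMP1 and 1.14 for SPRY4, and SH3KBP1 gave 1.07. Cell type markers gave -5.41 for ESRP1, -1.06 for ELF3, -0.76 for THY1 and 0.89 for CD68, and CDH1 and KRT19, named after their values were seen, gave -2.55 and 1.12. MAPK3 and NRP1, named likewise, gave 0.86 and 1.55. Each group is 1 clone, so a difference between the shRNAs cannot be told apart from one between clones. Groups of 3 arrays are too small for a check of single outlying arrays.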

How the results depend on the processing

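Of the 30 member differences, none changed sign while called or moved by more than 1 SD of its arrays under the alternatives run (504 values). Members called with sh1 minus control (4) and with sh2 minus sh1 (4) kept their number throughout. Members called with sh2 minus control were 2, but 1 at an adjusted p under 0.01 and at 2-fold, and 1 to 3 when single arrays were left out. Rows called with sh1 minus control went from 4025 to 2425 at 0.01 and 1200 at 2-fold (3044 to 4047 without single arrays), with sh2 minus control from 3498 to 1921 and 966 (2455 to 3587), and with sh2 minus sh1 from 2423 to 1331 and 755 (1803 to 2271). Pathway genes called with sh1 went from 37 to 14 at 2-fold (28 to 37), with sh2 from 29 to 15 (25 to 34), and with sh2 minus sh1 from 21 to 13 at 0.01 and 9 at 2-fold (15 to 21). A stricter threshold lowers a count by its construction. With the replicate block, 3996, 3432 and 2364 rows were called, and the block ended the calls of TFPI2 and MAPK3 with sh1 and of PAPLN and CDH1 with sh2. Whether equal numbers pair the arrays is not settled.

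Neighbour medians of HGF were 0.26 (sh1) and 0.24 (sh2) over 20 neighbours and 0.16 and 0.07 over the 40 nearest genes of any signal. Those of SPINT1 with sh1 were 0.83 and 0.55, and those of TMPRSS2 over 20 neighbours were 0.24 and 0.05; the cause was not tested. Of 70 called differences of named list genes and STOML2, 39 kept the call under every alternative, 31 lost it under at least 1, and 0 changed sign. Of 20 not called, 5 were called under at least 1. Signals near the background, such as HGF and ST14 in the control, limit how large a fold can appear.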
